A study of Mus musculus with 28 samples.

Results

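The smooth muscle contractile genes followed here are the 10 genes Acta2, Actg2, Myh11, Myl9, Cald1, Cnn1, Tagln, Smtn, Lmod1 and Des, picked by symbol from the 54429 genes of a deposited read count table. Their levels were measured by RNA sequencing in O9-1, a mouse cell line of cranial neural crest origin. Neural crest cells of the embryo form much of the face and, in the head, the smooth muscle around blood vessels. The 28 libraries fell into 8 groups, with 4 libraries in each group kept at 21% O2 and 3 in each group kept at 0.5% O2. No genetic change is named in the labels for any group, and they do not say whether libraries of a group came from separate cultures, so the p-values measure the spread between these libraries, which may be technical. At either oxygen level, proliferating cells grew in fibroblast-conditioned medium with 15% fetal calf serum, 25 ng/ml bFGF, 5 ng/ml LIF, beta-mercaptoethanol at 55 µM and non-essential amino acids at 0.1 mM, and all media held 1% penicillin and streptomycin. Osteoblast cultures spent 10 days in 10% serum with 100 ng/ml BMP-2, 10 mM beta-glycerophosphate and 0.1 µM dexamethasone. Chondrocyte cultures spent 3 days in that osteogenic medium and then 7 days as micromasses in 5% serum with 50 ng/ml BMP-2, 10 ng/ml TGF-beta3 and 0.1 µM dexamethasone. Smooth muscle cultures spent 3 days in plain DMEM with 10% serum, with no added growth factor named in the labels. The chondrogenic medium also held insulin, transferrin and selenium.

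A smooth muscle cell shortens when filaments of smooth muscle myosin, whose heavy chain is encoded by Myh11, pull on thin filaments built from alpha and gamma smooth muscle actin (Acta2, Actg2), after phosphorylation of the regulatory light chain encoded by Myl9. Caldesmon (Cald1), calponin (Cnn1), transgelin (Tagln) and smoothelin (Smtn) bind the thin filaments and tune or stabilise them, leiomodin (Lmod1) seeds new actin filaments, and desmin (Des) is a muscle intermediate filament. Many of these genes are activated by serum response factor (SRF) bound to a short DNA element, the CArG box, together with myocardin or the related MRTF proteins, and Acta2, Tagln and Cnn1 are also used in myofibroblasts and other stressed mesenchymal cells, so they do not by themselves define smooth muscle.

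All 10 genes had counts in at least 1 library, but Des stayed so low that it passed the filter on low counts in none of the comparisons. Values are counts per 1000000 (CPM) after scaling by the trimmed mean of M values (TMM). Library totals, in units of 1000000 counts, lay between 19.87 and 64.69 with a median of 26.8. A pair of features of the libraries touch the results below. The 0.5% O2 smooth muscle libraries had 11.62% to 13.31% of their counts in both mitochondrial ribosomal RNAs, against at most 0.0889% in the other 25 libraries, and a mean TMM factor of 0.518 against 0.9013 to 1.289, so their values depend most on the scaling. Osteoblast replicate 4 at 21% O2 stood apart from replicates 1 to 3: its counts differed from theirs by a chi-square per degree of freedom of 91.1 to 97.05, against 2.89 to 3.88 among those 3. Replicate 4 was also the furthest from the others, by less, in proliferating cells (18.3 to 22.29 against 5.18 to 5.83) and smooth muscle cultures (14 to 20.2 against 6.1 to 7.93) at 21% O2, while in chondrocyte cultures replicates 1 and 4 both lay apart (27.83 to 36.54 against 8.58 between replicates 2 and 3). Each library was left out in turn, and results that rest on osteoblast replicate 4 are given with and without it. In bulk RNA, fewer cells of a type and less RNA per cell cannot be told apart.

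The RefSeq promoter windows (GRCm38.p6, 250 bases before to 50 after a gene's start) were searched for the CArG box, which reads CC, then 6 bases that are each A or T, then GG, and which is its own pattern on the opposite strand. A match with 5 of the 6 middle bases A or T was counted as CArG-like. Of the 10 genes, 7 had a window (8 windows, as Cald1 has 2 starts), and 2 windows held a box of either kind. The stretches around those boxes are shown here because Acta2 and Myl9 were the members with a match. They are written 5′ to 3′ on the gene's strand with the boxes in capitals.
Acta2 (chr19:34255378-34255477, minus strand, with CArG-like boxes at -84 to -75 and -34 to -25 from the start): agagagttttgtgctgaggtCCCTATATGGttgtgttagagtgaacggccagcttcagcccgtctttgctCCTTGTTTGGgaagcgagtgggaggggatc
Myl9 (chr2:156775283-156775394, plus strand, with a CArG box at -161 to -152 and a CArG-like box at -99 to -90): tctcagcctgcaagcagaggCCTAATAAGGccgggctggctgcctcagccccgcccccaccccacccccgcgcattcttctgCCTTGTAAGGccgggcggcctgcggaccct
Among all 32851 windows of this length, 1.63% held a CArG box and 9.98% a box of either kind. The windows of Cald1, Cnn1, Des, Lmod1 and Smtn held no match, which says only that these letters are not within those 300 bases. Tagln, Myh11 and Actg2 were not searched.

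The thin filament actins had low levels in proliferating cells and high levels in every differentiated group except smooth muscle cultures at 0.5% O2. Acta2 (ENSMUSG00000035783; GRCm38 chr19:34241090-34255590), the smooth muscle alpha actin, stood at 42.38, 42.16, 43.97 and 38.75 CPM in proliferating libraries at 21% O2. It stood at 1645, 1895, 1948 and 2096 CPM in chondrocyte, 2952, 2827, 2968 and 4162 CPM in osteoblast and 3448, 3139, 3417 and 3012 CPM in smooth muscle cultures. At 0.5% O2 it stood at 31.01, 32.04 and 25.02 CPM in proliferating, 1713, 1372 and 1442 CPM in chondrocyte, 1663, 1572 and 1848 CPM in osteoblast, and 18.75, 13.86 and 30 CPM in smooth muscle cultures. Osteoblast and smooth muscle libraries at 21% O2 overlapped at the top of this order, with means of 3227 ± 626 (SD, n = 4) and 3254 ± 213 CPM (n = 4), and both lay apart from all other groups. The 0.5% O2 smooth muscle libraries, with a mean of 20.87 ± 8.28 CPM (n = 3), were at the bottom and overlapped with proliferating libraries at 0.5% O2.

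Actg2 (ENSMUSG00000059430; GRCm38 chr6:83512905-83536265), the gamma actin of visceral smooth muscle, reached at most 0.2651 CPM in proliferating cells at either oxygen level. It stood at 24.2, 23.97, 23.89 and 9.133 CPM in chondrocyte, 9.465, 10.41, 10.58 and 35.16 CPM in osteoblast and 17.18, 13.1, 15.31 and 16.74 CPM in smooth muscle cultures at 21% O2. At 0.5% O2 the values were 14.33, 12.64 and 12.68 CPM in chondrocyte and 7.199, 6.666 and 7.075 CPM in osteoblast cultures, and no count was found in any of the 3 smooth muscle libraries. The 21% O2 differentiated groups overlapped one another, and replicate 4 was the high library of the osteoblast group and the low library of the chondrocyte group.

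Acta2 and Actg2 share 955 bases in an alignment of their coding sequences, an identity of 84.2%, and their longest shared run is 29 bases. The starts of both reading frames (GENCODE M21 transcripts) are printed because that is where the 2 genes differ by a codon, and capitals mark the bases without an identical partner in the alignment.
Acta2: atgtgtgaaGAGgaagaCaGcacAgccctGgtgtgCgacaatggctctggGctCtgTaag
Actg2: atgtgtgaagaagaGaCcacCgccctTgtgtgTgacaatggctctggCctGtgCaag
The longest run that Acta2 shares with Actb is 47 bases, and with Actg1, the other cytoplasmic actin, 56 bases. How reads that fit more than 1 actin gene were counted is not given in the sources used here, so small values of one actin beside a very abundant other are uncertain.

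The myosin subunits divided into an abundant light chain and a scarce heavy chain. Myl9 (ENSMUSG00000067818; GRCm38 chr2:156775420-156781658), the regulatory light chain, stood at 2.878, 2.661, 2.551 and 4.061 CPM in proliferating, 82.58, 95.77, 93.76 and 105.5 CPM in chondrocyte, 392.8, 390.1, 395.8 and 499.5 CPM in osteoblast and 483.8, 462.4, 513.6 and 439.4 CPM in smooth muscle cultures at 21% O2. At 0.5% O2 it stood at 1.463, 0.7543 and 1.027 CPM in proliferating, 103.8, 78.11 and 87.09 CPM in chondrocyte, 141.2, 125.2 and 133.8 CPM in osteoblast, and 4.724, 1.296 and 2.963 CPM in smooth muscle cultures. Osteoblast and smooth muscle libraries at 21% O2 again overlapped at the top and stood apart from the osteoblast libraries at 0.5% O2, the next group down. Myh11 (ENSMUSG00000018830; GRCm38 chr16:14194535-14291372), the heavy chain that marks mature smooth muscle, stayed below 3 CPM in all 28 libraries.

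Its highest values, in CPM, were 1.746, 1.814, 1.39 and 2.338 in osteoblast and 1.225, 1.396, 0.928 and 2.653 in smooth muscle cultures at 21% O2. At 0.5% O2 Myh11 stood at 1.471, 1.237 and 0.528 CPM in osteoblast and at 1.35, 0.3989 and 0 CPM in smooth muscle cultures. Proliferating and chondrocyte means of Myh11 were between 0.03239 and 0.3014 CPM, and neighbouring groups in its order overlapped throughout. The scale of the gap to actin is seen per exon length: in osteoblast cultures at 21% O2 the mean level was 1470 CPM per kilobase of exon for Acta2, 361.1 for Myl9 and 0.2398 for Myh11.

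The thin filament regulators Tagln, Cnn1 and Cald1 shared the low level in 0.5% O2 smooth muscle cultures but not a single order of groups. Tagln (ENSMUSG00000032085; GRCm38 chr9:45929619-45936058), transgelin or SM22, stood at 261.4, 273.6, 259.2 and 190.2 CPM in chondrocyte, 247.7, 229.7, 241.9 and 505.2 CPM in osteoblast and 300.2, 272.3, 296.5 and 302.4 CPM in smooth muscle cultures at 21% O2. At 0.5% O2 it stood at 352.5, 323.1 and 352.4 CPM in chondrocyte, 136.4, 138.8 and 153.2 CPM in osteoblast, and 13.8, 14.26 and 11.39 CPM in smooth muscle cultures. The proliferating libraries held between 8.646 and 11.19 CPM at either oxygen level. Chondrocyte cultures at 0.5% O2 had the highest mean of Tagln, 342.7 ± 17 CPM (SD, n = 3), although their libraries overlapped with the range of the 21% O2 osteoblast group through its replicate 4. This rank depended on the scaling. By library totals their mean was 313.3 CPM, below 375.5 CPM in smooth muscle and 337.5 CPM in osteoblast cultures at 21% O2.

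Cnn1 (ENSMUSG00000001349; GRCm38 chr9:22099216-22109630), calponin, was scarce. At 21% O2 it stood at 2.839, 3.638, 2.595 and 2.729 CPM in chondrocyte, 4.89, 5.322, 5.051 and 12.36 CPM in osteoblast and 7.349, 4.779, 5.684 and 5.365 CPM in smooth muscle cultures, and at no more than 0.21 CPM in proliferating libraries. At 0.5% O2 the values were 8.988, 6.851 and 6.998 CPM in chondrocyte, 3.135, 2.92 and 2.851 CPM in osteoblast, and 0, 0 and 0.9261 CPM in smooth muscle cultures, the last from 10 counts in 1 library. As for Tagln, the highest mean was that of 0.5% O2 chondrocyte cultures, at 7.612 ± 1.19 CPM (SD, n = 3), and its libraries overlapped with the osteoblast group at 21% O2. This rank also depended on the scaling. By library totals that mean was 6.95 CPM, below 7.623 CPM in osteoblast and 7.427 CPM in smooth muscle cultures at 21% O2.

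Cald1 (ENSMUSG00000029761; GRCm38 chr6:34598500-34775473), caldesmon, which also has a non-muscle form, had a substantial level in every group. It stood at 577.5, 581.1, 592.0 and 550.1 CPM in proliferating, 1508, 1420, 1471 and 1578 CPM in chondrocyte, 1682, 1616, 1621 and 2211 CPM in osteoblast and 1733, 1714, 1723 and 1551 CPM in smooth muscle cultures at 21% O2. At 0.5% O2 it stood at 699.3, 675.5 and 748.8 CPM in proliferating, 1681, 1504 and 1557 CPM in chondrocyte, 1280, 1158 and 1197 CPM in osteoblast, and 351.6, 356.1 and 366.2 CPM in smooth muscle cultures. All 3 smooth muscle libraries at 0.5% O2 were below every proliferating library. Per kilobase of exon, Cald1 made up 56.1% of the summed level of the 10 genes in proliferating cells at 21% O2 and 6.52% in osteoblast cultures at 21% O2, where Acta2 made up 64.4%.

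Smtn and Lmod1 were the members whose level in osteoblast cultures lay above that in every other culture. For Lmod1 at 0.5% O2 this depended on the scaling. Smtn (ENSMUSG00000020439; GRCm38 chr11:3517523-3540612), smoothelin, stood at 505.8, 496.0, 507.7 and 417.2 CPM in osteoblast cultures at 21% O2 and at 423.0, 444.2 and 428.2 CPM at 0.5% O2. Smooth muscle cultures held 233.3, 230.4, 216.4 and 206.7 CPM of Smtn at 21% O2 and 84.96, 66.21 and 70.01 CPM at 0.5% O2. The remaining groups lay between 46.38 and 233.5 CPM, so that Smtn in either osteoblast group was above every library of the other 6 groups.

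Lmod1 (ENSMUSG00000048096; GRCm38 chr1:135324807-135368065), leiomodin 1, stood at 98.53, 87.56, 93.02 and 75.1 CPM in osteoblast cultures at 21% O2, at 67.54, 53.56 and 60.47 CPM in osteoblast cultures at 0.5% O2 and at 52.58, 48.56, 47.74 and 49.24 CPM in smooth muscle cultures at 21% O2. These 3 groups did not overlap. By library totals, osteoblast libraries at 0.5% O2 held 67.19, 52.54 and 58.92 CPM, with a mean of 59.55 CPM. They then overlapped with smooth muscle libraries at 21% O2, at 67.04, 62.54, 61.55 and 62.9 CPM, whose mean of 63.51 CPM was the higher. Chondrocyte cultures had means of 9.312 ± 2.48 CPM (SD, n = 4) at 21% O2 and 10.2 ± 3.61 CPM (n = 3) at 0.5% O2. Lmod1 was near 0 elsewhere, with 1, 3 and 0 counts in the 0.5% O2 smooth muscle libraries and at most 0.245 CPM in a proliferating library.

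Des (ENSMUSG00000026208; GRCm38 chr1:75360329-75368579), desmin, never exceeded 0.4484 CPM. Its counts summed over the libraries of a group were 2 in proliferating, 19 in chondrocyte, 27 in osteoblast and 5 in smooth muscle cultures at 21% O2, and 0, 14, 12 and 6 in the same order at 0.5% O2. The ratio of osteoblast to proliferating levels at 21% O2 was 20 with an exact 95% interval of 5.02 to 174, which covers counting error only, and the libraries of those groups overlapped. Smooth muscle cultures at 21% O2 thus held high levels of Acta2, Myl9, Tagln and Cald1 but only a few counts of the desmin gene and less than 3 CPM of the heavy chain gene.

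**Figure D1:**
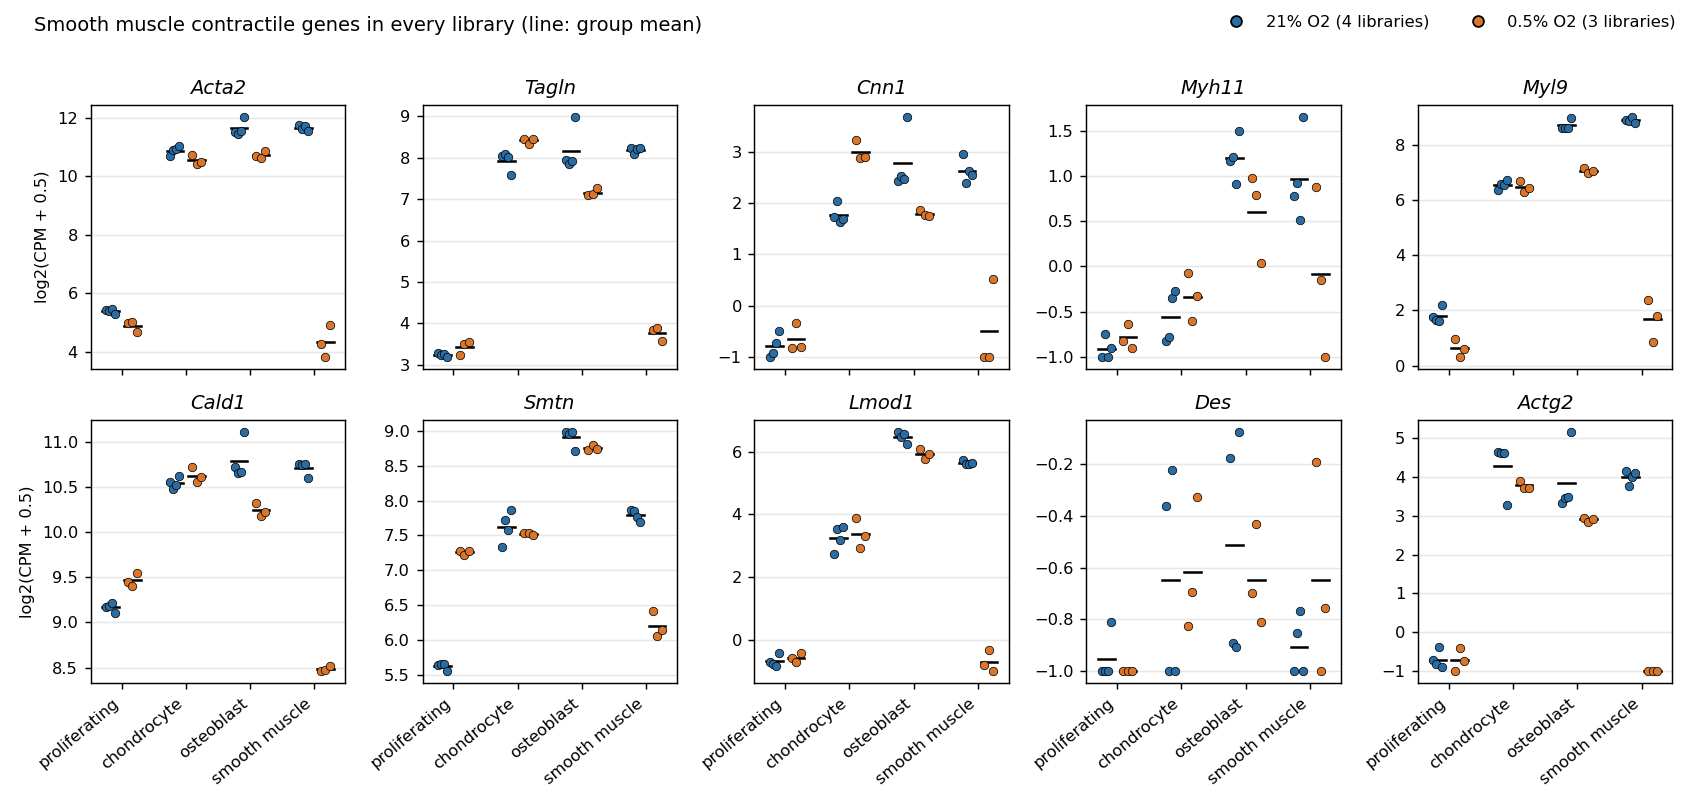
Level of each of the 10 genes in every library, as log2 of CPM plus 0.5, with 1 panel per gene; points are libraries (blue at 21%, orange at 0.5% O2, side by side within each culture), the short line is the group mean, and each panel has its own scale. For Acta2, Myl9, Tagln, Cnn1, Lmod1 and Actg2 the differentiated groups sit far above proliferating cells except for smooth muscle cultures at 0.5% O2, and Des stays below 0 on this scale in all libraries.

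The comparisons with proliferating cells ask how the contractile genes changed when neural crest cells left proliferation at 21% O2. In osteoblast cultures all 9 tested members were higher than in proliferating cells, and in smooth muscle cultures the same number were. In chondrocyte cultures 8 of 8 tested members were higher. Myl9 rose 145-fold in osteoblast cultures (log2 7.18, SE 0.182, edgeR adjusted p = 1.48e-09) and 166-fold in smooth muscle cultures (log2 7.38, SE 0.12). Acta2 rose 80.2-fold in osteoblast cultures (log2 6.33, SE 0.156, edgeR adjusted p = 1.25e-09), 80.7-fold in smooth muscle cultures (SE 0.0763 in log2) and 47.7-fold in chondrocyte cultures (log2 5.58, SE 0.0915).

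Each fold is an edgeR quasi-likelihood estimate over all genes tested, called at a Benjamini-Hochberg adjusted p under 0.05. The background is large: 40.9% of the genes tested were called higher in osteoblast, 40.8% in smooth muscle and 37.7% in chondrocyte cultures. Cnn1, Myh11, Lmod1 and Actg2 had so few counts in proliferating cells that they passed the filter through the differentiated libraries alone, so their calls and their part in the medians follow in part from the filter. The median log2 fold change of the members was 6.33, 6.33 and 5.25 in osteoblast, smooth muscle and chondrocyte cultures, against 0.066, 0.028 and -0.0029 over all genes tested. Over the 5 members with at least 10 counts in every library (Acta2, Tagln, Myl9, Cald1 and Smtn), all of them called higher in each culture, it was 5.16, 5.09 and 4.86. The 3 comparisons share the proliferating libraries.

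Members differed in how far they moved. The largest fold in osteoblast cultures was that of Lmod1, at log2 9.63 (SE 0.214), against 8.80 in smooth muscle and 6.39 in chondrocyte cultures. Tagln rose by 5.16 (SE 0.289), 5.09 and 4.86 on the log2 scale in the same order, and Actg2 by 7.26 (SE 0.696), 7.20 and 7.60. Smtn rose by 3.36 in osteoblast, 2.23 in smooth muscle and 2.10 in chondrocyte cultures, and Cald1, already abundant in proliferating cells, by 1.69, 1.60 and 1.45. Cnn1 rose by 6.66, 6.43 and 5.44, and Myh11, tested only in the first 2 of these cultures, by 5.32 (SE 0.563) and 5.08. Without proliferating replicate 4 Cnn1 stood at 7.52, 7.27 and 6.30, and without proliferating replicate 2 Myh11 stood at 6.997 and 6.80. Without osteoblast replicate 4 all 9 members remained higher in osteoblast cultures, with Acta2 at 6.13, Tagln at 4.76 and Actg2 at 6.54.

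At 0.5% O2 the same 3 transitions gave a different picture for smooth muscle cultures. Osteoblast cultures still had 9 of 9 tested members higher than proliferating cells at 0.5% O2, where 36.2% of all genes were called higher, and chondrocyte cultures 8 of 8, where 34.9% were. The member medians were 4.39 and 5.71 on the log2 scale, against 0.001 and -0.021 over all genes, and 3.79 and 5.05 over the 5 members with at least 10 counts in every library; the others again passed the filter through the differentiated libraries. Acta2 rose by 5.85 (SE 0.111, edgeR adjusted p = 1.64e-15) in osteoblast and 5.68 in chondrocyte cultures, Myl9 by 6.93 and 6.35, and Lmod1 by 8.43 and 5.86. Tagln rose by 3.79 and 5.05, Cnn1 by 4.39 and 5.75, Actg2 by 5.88 and 6.80, and Cald1 by 0.77 and 1.15. Smtn rose by 1.5 in osteoblast cultures and by 0.26 in chondrocyte cultures (edgeR adjusted p = 8.86e-04), but the latter was -0.07 and not called when libraries were scaled by their totals alone (edgeR adjusted p = 0.249). Myh11 rose by 3.68 in osteoblast cultures. Without proliferating replicate 2 at 0.5% O2, Cnn1 stood at 5.39 in osteoblast and 6.74 in chondrocyte cultures, Actg2 at 7.01 and 7.92, and Myh11 at 4.31 in osteoblast cultures, while without proliferating replicate 1 Actg2 stood at 5.28 and 6.19.

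Smooth muscle cultures at 0.5% O2 did not show the rise of the smooth muscle genes. Only 5 members reached the filter there, with a median log2 difference from proliferating cells of -0.373, against -0.073 over all genes. Cald1 fell by 0.86 on the log2 scale (SE 0.0679, edgeR adjusted p = 4.72e-07) and Smtn fell by 0.93 (SE 0.1, edgeR adjusted p = 7.06e-06), 2 members called lower where 36.2% of all genes were; under scaling by library totals they stood at -2.14 and -2.20. Acta2 differed by -0.37 (SE 0.22, edgeR adjusted p = 0.152; 95% interval -0.98 to 0.24), and was called lower without smooth muscle replicate 3 (-0.73, edgeR adjusted p = 0.00521), in 1 fit over all 28 libraries (-0.49, 0.0181) and under scaling by library totals (-1.65, 4.9e-05), which moved the median of all genes by -1.3.

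Tagln and Myl9 were the 2 members called higher there, where 33.8% of all genes were, and both calls were fragile. Tagln was 0.47 higher on the log2 scale (edgeR adjusted p = 0.028), but 0.80 lower (log2 -0.80) under scaling by library totals, and the call was lost without proliferating replicate 1 (edgeR adjusted p = 0.156), proliferating replicate 2 (0.0753) or smooth muscle replicate 2 (0.0604), without a filter (0.103) and in 1 fit over all 28 libraries (0.188). Myl9 was 1.60 higher (SE 0.508, edgeR adjusted p = 0.0148) with overlapping libraries, and was not called under scaling by library totals (0.34, edgeR adjusted p = 0.553) or without proliferating replicate 2 (1.37), proliferating replicate 3 (1.55) or smooth muscle replicate 1 (1.10). The mean Myl9 level of 2.995 ± 1.71 CPM (SD, n = 3) was 0.631% of that in smooth muscle cultures at 21% O2.

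**Figure D2:**
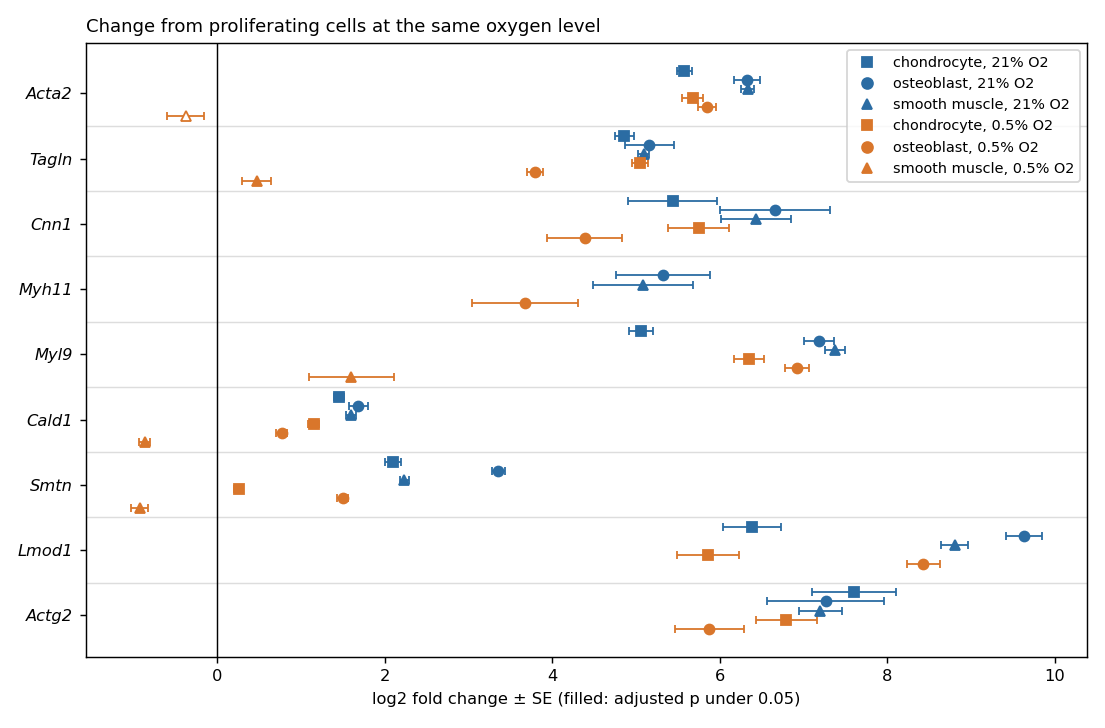
Log2 fold change of each tested member from proliferating cells at the same oxygen level, with SE bars, for chondrocyte, osteoblast and smooth muscle cultures; filled points have an edgeR adjusted p under 0.05 and hollow points do not. At 21% O2 all points lie above 0, with osteoblast and smooth muscle cultures close together for most members and chondrocyte cultures below them for Lmod1 and Myl9, and at 0.5% O2 smooth muscle cultures lie near 0, where the sign for Tagln turns under scaling by library totals, as does that of Smtn in chondrocyte cultures.

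Osteoblast cultures were then set directly against smooth muscle cultures at 21% O2, which asks how close their contractile gene levels were; the cultures differ in medium and in days. Of the 9 tested members, 2 were higher in osteoblast cultures, near the 25.3% of all genes that were, and none was called lower, where 24.4% of all genes were. Smtn was 2.15-fold higher (log2 1.11, SE 0.0789, edgeR adjusted p = 1.86e-06) and Lmod1 1.77-fold higher (log2 0.83, SE 0.082, edgeR adjusted p = 1.96e-05), both without overlap between libraries. For the others the mean level in osteoblast cultures was between 88.4% (Myl9) and 119% (Cnn1) of that in smooth muscle cultures. The summed level of all 10 genes was 5663 to 7920 CPM in osteoblast and 5586 to 6276 CPM in smooth muscle libraries. The highest of these sums was that of osteoblast replicate 4, and Acta2 and Cald1 were the largest parts. By library totals their means were 3546 and 1958 CPM in osteoblast and 4173 and 2155 CPM in smooth muscle cultures. The median log2 difference of the members was 0.0744, against -0.00049 over all genes tested.

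The intervals show how well those small differences were measured. Acta2 differed by -0.02 on the log2 scale, with a 95% interval of -0.33 to 0.29 (edgeR adjusted p = 0.897), and Cald1 by 0.07, with an interval of -0.19 to 0.34. Tagln differed by 0.05 (-0.55 to 0.66), Cnn1 by 0.25 (-0.51 to 1.0), Myh11 by 0.22 (-0.59 to 1.03) and Actg2 by 0.07 (-0.97 to 1.12). Myl9 differed by -0.19 (-0.43 to 0.05, edgeR adjusted p = 0.13). Under scaling by library totals the signs of Tagln (-0.15), Cald1 (-0.14) and Actg2 (-0.13) turned and Myl9 was called lower (-0.40), while the median over all genes moved by -0.21.

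Much of the width came from osteoblast replicate 4. Compared with the mean of replicates 1 to 3, this library had 3.46 times the Actg2, 2.43 times the Cnn1, 2.11 times the Tagln and 1.43 times the Acta2 level, but 0.829 times the Smtn and 0.807 times the Lmod1 level. Without it 4 members were called lower in osteoblast than in smooth muscle cultures, where 29.8% of all genes were: Acta2 (-0.17, edgeR adjusted p = 0.0101), Tagln (-0.30, 4.5e-05), Myl9 (-0.29, 1.18e-04) and Actg2 (-0.63, 4.03e-05). Smtn and Lmod1 remained higher, at 1.17 and 0.90, and Cnn1 (-0.20, edgeR adjusted p = 0.276), Cald1 (-0.05) and Myh11 (0.07) were not called. For Acta2 the sign was also positive, at no more than 0.04, when osteoblast replicate 1, 2 or 3 or smooth muscle replicate 1 or 3 was left out, and for Actg2 it was negative, at -0.0067, without smooth muscle replicate 2.

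The same library differed in markers of other cell types. It had 45.38 CPM of Sp7, the osteoblast transcription factor, against 0.6702 to 1.356 CPM in replicates 1 to 3. Its Alpl level, tissue alkaline phosphatase, was 40 CPM against 1.39 to 2.523, and its Col2a1 level, cartilage collagen II, was 775.3 CPM against 35.59 to 43.63. The part of these differences in the contractile gene values was not tested, beyond leaving the library out.

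**Figure D3:**
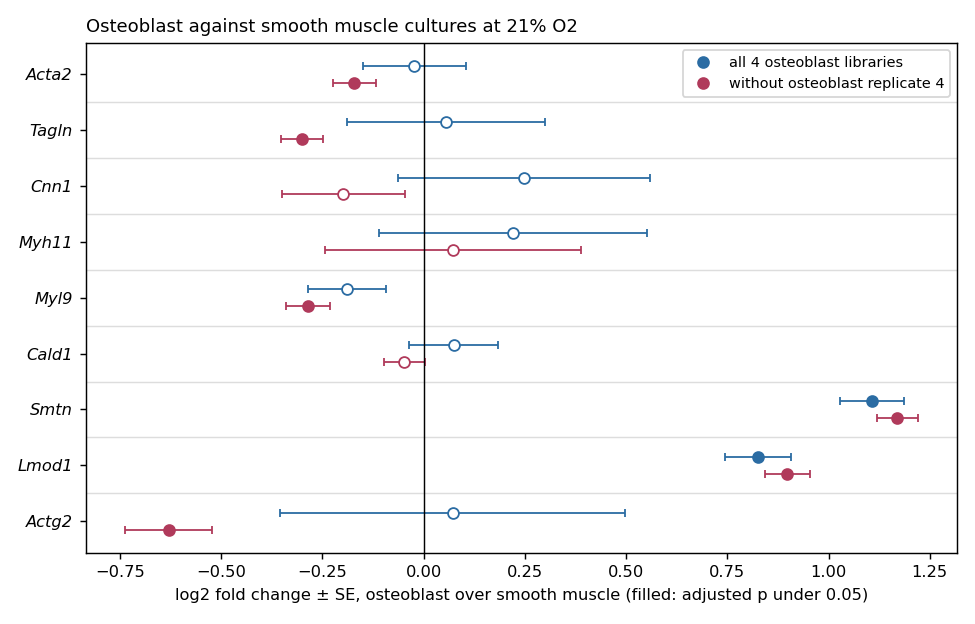
Log2 difference, osteoblast minus smooth muscle cultures at 21% O2, for each tested member with all 4 osteoblast libraries and without osteoblast replicate 4, with SE bars; filled points have an edgeR adjusted p under 0.05. Smtn and Lmod1 are at 1.11 and 0.83 with all libraries and stay above 0 without replicate 4, while Tagln, Actg2, Cnn1 and Cald1 lie near 0 and change sign without it; the signs of Tagln, Cald1 and Actg2 also turn under scaling by library totals.

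The osteoblast markers of these cultures were uneven. Of the 20 osteoblast marker genes with counts, none was at 0 over the osteoblast libraries at 21% O2, and their summed level was 39400 to 41500 CPM, against 7350 to 7980 CPM in proliferating and 95800 to 108000 CPM in chondrocyte libraries. Matrix genes of the list were abundant in them, such as Postn, periostin (mean 17170 CPM), Col1a2, a collagen I chain (10680 CPM), Sparc, osteonectin (4863 CPM), and Spp1, osteopontin (1011 CPM, below the 2100 CPM of proliferating cells). Runx2, the early osteoblast factor, was at 63.51 CPM in osteoblast and 63.89 CPM in proliferating cells. Markers of later stages were low in replicates 1 to 3: these held 0.6702 to 1.356 CPM of Sp7, 1.39 to 2.523 CPM of Alpl and 0.3842 to 0.4746 CPM of Ibsp, bone sialoprotein, and replicate 4 held 45.38, 40 and 3.203 CPM. In chondrocyte cultures the means were 169.6 CPM of Sp7, 264.9 CPM of Alpl and 1173 CPM of Ibsp, and in osteoblast cultures at 0.5% O2 96.67, 74.61 and 69.6 CPM. Bglap, osteocalcin, reached 0.4484 CPM in replicate 4 and at most 0.0339 CPM in replicates 1 to 3. Whether these marker levels and those of the contractile genes belong to the same cells was not tested.

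Against chondrocyte cultures at 21% O2, 6 of 9 tested members were higher in osteoblast cultures, where 31.1% of all genes were, and the median difference was 1.25 against 0.031. Myh11, with 2, 2, 8 and 9 counts in the chondrocyte libraries, passed the filter through the osteoblast libraries, so its call follows in part from it. Of the 8 members with at least 10 counts in every library, 5 were higher and the median was 1.02. Lmod1 and Myh11 were each higher by 3.27 on the log2 scale (SE 0.191 and 0.459), Myl9 by 2.17, Smtn by 1.3, Cnn1 by 1.25 and Acta2 by 0.79 (SE 0.138, edgeR adjusted p = 8.1e-04). Tagln differed by 0.34 (edgeR adjusted p = 0.291), Cald1 by 0.28 (0.0592) and Actg2 by -0.28 (0.641). Without osteoblast replicate 4, Tagln stood at -0.02, Cnn1 at 0.81 and Acta2 remained higher, Cald1 was called higher (0.15, edgeR adjusted p = 0.0406) and Actg2 lower (-0.98, edgeR adjusted p = 0.0335). Cald1 was also called higher under scaling by library totals (0.44, edgeR adjusted p = 0.0106) and in 1 fit over all 28 libraries (0.25, 0.0062).

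The osteoblast cultures at 0.5% O2 were set against the other cultures at that oxygen level in the same way. Compared with smooth muscle cultures, 8 of 9 tested members were higher, where 39.1% of all genes were, with a median of 3.38 against 0.082. Lmod1, Actg2 and Cnn1 passed the filter through the osteoblast libraries, and the 5 members with at least 10 counts in every library were all higher, with a median of 3.38. Acta2 was higher by 6.28 on the log2 scale (SE 0.242, edgeR adjusted p = 4.81e-10), Lmod1 by 8.88, Myl9 by 5.36, Tagln by 3.38, Cnn1 by 3.23, Smtn by 2.49 and Cald1 by 1.70. Actg2, without a count in smooth muscle libraries, was at least 79.4-fold higher against a floor of 3 counts over the group. Lmod1, with 4 counts in the smooth muscle libraries, moved to 10.28 without smooth muscle replicate 2. Under scaling by library totals the differences were larger, at 7.26 for Acta2, 9.82 for Lmod1, 6.34 for Myl9, 4.36 for Tagln, 4.20 for Cnn1, 3.47 for Smtn and 2.68 for Cald1. Myh11 differed by 0.75 (edgeR adjusted p = 0.419), and by 2.39 with a call (0.0446) without smooth muscle replicate 1, while Cnn1 moved to 8.98, a fitted value against no counts, without smooth muscle replicate 3 and to 2.58 without replicate 1, stood at 4.55 with limma-voom, and was not called by DESeq2 (3.19, adjusted p = 0.0838).

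Compared with chondrocyte cultures at 0.5% O2, 4 members were higher and 4 lower, where 29.0% and 28.6% of all genes were, and the median was 0.161 against -0.0077. Myh11 had 14, 4 and 9 counts in the chondrocyte libraries and passed the filter through the osteoblast libraries. Of the 8 members with at least 10 counts in every library, 3 were higher and 4 lower, and the median had the other sign, -0.114. Lmod1 (2.56), Myh11 (1.79), Smtn (1.23) and Myl9 (0.57) were higher in osteoblast cultures. Cnn1 (-1.37), Tagln (-1.27), Actg2 (-0.93) and Cald1 (-0.39) were lower. Acta2 differed by 0.16 (edgeR adjusted p = 0.202). It was called higher without chondrocyte replicate 1 (0.26, 0.0261) and under scaling by library totals (0.27, edgeR adjusted p = 0.0313). Myh11 was not called without osteoblast replicate 1 (1.52, 0.0515). Actg2 was not called in 1 fit over all 28 libraries (-0.92, edgeR adjusted p = 0.0814).

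Low oxygen within a culture had its largest effect in smooth muscle conditions. There 8 of 9 tested members were lower at 0.5% than at 21% O2, where 40.2% of all genes were, and the median log2 difference was -4.41 against -0.12. Lmod1, Actg2 and Cnn1, with next to no counts at 0.5% O2, passed the filter through the 21% O2 libraries, so their calls follow in part from it; the 5 members with at least 10 counts in every library were all lower, with a median of -4.41. Lmod1 fell 388-fold (log2 -8.60, SE 0.282), Acta2 149-fold (log2 -7.22, SE 0.235, edgeR adjusted p = 7.08e-11) and Myl9 146-fold (log2 -7.19, SE 0.222, edgeR adjusted p = 1.93e-12). The mean at 0.5% O2 was 0.641% of that at 21% O2 for Acta2 and 0.252% for Lmod1. The Lmod1 value rests on 1, 3 and 0 counts at 0.5% O2 and moved to -10.03 without smooth muscle replicate 2. Actg2, at 0 counts in 3 libraries, was at least 177-fold lower.

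Regulators of the thin filament fell less. Tagln fell by 4.41 on the log2 scale (SE 0.105, edgeR adjusted p = 2.05e-14), Cnn1 by 4.21 (SE 0.627), Cald1 by 2.17 (SE 0.0755) and Smtn by 1.52 (SE 0.0951), and their means were 4.49% of the 21% O2 level for Tagln, 21.3% for Cald1 and 33.3% for Smtn. Cnn1 without smooth muscle replicate 3 at 0.5% O2 gave a fitted -10.28 against no counts, without replicate 1 -3.54, and with limma-voom -5.48. Myh11 differed by -1.27 (SE 0.708, edgeR adjusted p = 0.118), with 18, 4 and 0 counts in the libraries at 0.5% O2, and was called lower without replicate 1 at 0.5% O2 (-2.93, edgeR adjusted p = 0.00636), under scaling by library totals (-2.61, edgeR adjusted p = 0.00338) and in 2 of the other alternatives (-2.09 with limma-voom and -1.39 without a filter).

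The calls for these 8 members held under scaling by library totals, which moved the median of all genes by -1.4. The log2 differences were then -9.91 for Lmod1, -8.59 for Acta2, -8.55 for Myl9, -5.78 for Tagln, -5.55 for Cnn1, -3.54 for Cald1 and -2.89 for Smtn. Beside them, the summed level of 29 hypoxia response genes was 49900 to 52500 CPM at 0.5% O2 against 1610 to 1690 CPM at 21% O2. The 28 striated muscle genes with counts summed to 52.2 to 61.6 against 36.4 to 41.4 CPM, but to 26.7 to 32.8 against 46.9 to 53.4 under scaling by library totals, with 9 of them at 0 at 0.5% O2 and 6 at 21% O2. Cell cycle genes (32) summed to 1600 to 1730 against 1040 to 1210 CPM, but to 807 to 910 against 1330 to 1540 under scaling by library totals, so the direction of both lists turns with the scaling. The sums of 7 macrophage genes were 37.8 to 42.9 CPM against at most 15.3 CPM in the libraries of other groups. The size of that gap depends on the TMM factors, with a mean of 0.518 in these libraries against 0.9013 to 1.289 elsewhere. The part of the mitochondrial RNA share, or of any of these lists, in the fall of the contractile genes was not tested.

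In osteoblast cultures the fall at 0.5% O2 was smaller. Of 9 tested members 6 were lower, where 27.3% of all genes were, and the median was -0.931 against -0.032. Myl9 fell 3.15-fold (log2 -1.65, SE 0.118, edgeR adjusted p = 5.65e-06), Acta2 1.91-fold (log2 -0.93, SE 0.154, edgeR adjusted p = 8.44e-04) and Tagln 2.15-fold (log2 -1.10, SE 0.291, edgeR adjusted p = 0.0132). Cnn1 (-1.22), Cald1 (-0.56) and Lmod1 (-0.55) were also lower. Smtn (-0.16, edgeR adjusted p = 0.179), Myh11 (-0.76, 0.108) and Actg2 (-1.24, 0.0727) were not called, and the mean of Smtn at 0.5% O2 was 89.6% of that at 21% O2, while those of Acta2 and Myl9 were 52.5% and 31.8%.

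Without osteoblast replicate 4 at 21% O2, where 32.7% of all genes were lower, 8 members were: Myl9 at -1.56, Acta2 at -0.78, Cnn1 at -0.78, Tagln at -0.75, Lmod1 at -0.62, Actg2 at -0.54 (edgeR adjusted p = 0.00134), Cald1 at -0.44 and Smtn at -0.22 (0.00274). Actg2 was also called without osteoblast replicate 1 at 21% O2 (-1.44, edgeR adjusted p = 0.0484), and Cnn1 was not called without replicate 2 (-1.21, 0.0558) or 3 (-1.19, 0.0627) at 0.5% O2. Smtn was called lower under scaling by library totals (-0.31), and Tagln was not called without a filter on low counts (-1.11, edgeR adjusted p = 0.0544).

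Chondrocyte cultures had the fewest calls with oxygen. There 2 of 8 tested members were higher at 0.5% O2 and 1 lower, where 10.4% and 11.8% of all genes were, and the median difference was -0.00369 against -0.0058. Cnn1 rose 2.57-fold (log2 1.36, SE 0.179, edgeR adjusted p = 3.04e-04) and Tagln 1.39-fold (log2 0.47, SE 0.112, edgeR adjusted p = 0.0127), although Tagln was not called without chondrocyte replicate 3 at 0.5% O2 (0.45, 0.0561) or in 1 fit over all 28 libraries (0.48, 0.0692). Acta2 fell by 0.34 on the log2 scale (SE 0.1, edgeR adjusted p = 0.0318) with overlapping libraries.

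The call for Acta2 was lost without chondrocyte replicate 2 (-0.27, edgeR adjusted p = 0.136) or 3 (-0.31, 0.136) at 0.5% O2, without chondrocyte replicate 2 (-0.33, 0.0792) or 3 (-0.33, 0.0785) at 21% O2, in 1 fit over all 28 libraries (-0.33, 0.146) and in the fit with a replicate block (edgeR adjusted p = 0.0994). Myl9 (-0.08), Cald1 (0.07), Smtn (-0.12) and Lmod1 (0.13) were not called, and Cald1 stood at -0.0025 under scaling by library totals. Leaving out chondrocyte replicate 2 at 0.5% O2 turned Myl9 to 0.0099, and leaving out replicate 1 at 0.5% or at 21% O2 turned Lmod1 to -0.17 or -0.03. Actg2 differed by -0.63 (edgeR adjusted p = 0.226) and was called lower without chondrocyte replicate 4 at 21% O2 (-0.87, 9e-05).

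In proliferating cells 3 of 5 tested members were higher at 0.5% O2 and 2 lower, where 33.1% and 32.3% of all genes were, and the median was 0.264 against 0.015. Smtn was the member that moved most: it stood at 154.8, 148.2 and 154.8 CPM at 0.5% O2 and at 49.38, 49.88, 49.8 and 46.38 CPM at 21% O2, a 3.25-fold rise (log2 1.70, SE 0.0467, edgeR adjusted p = 2.57e-12). Cald1 rose by 0.36, Acta2 fell by 0.45 (SE 0.084, edgeR adjusted p = 2.95e-04) and Myl9 fell by 1.42 (SE 0.275, edgeR adjusted p = 4.33e-04) on the log2 scale. Tagln was called higher by 0.26 (edgeR adjusted p = 0.0476) with overlapping libraries, and the call was lost in 6 of the 7 fits that left out 1 library, with values of 0.20 to 0.28: each proliferating replicate at 21% O2 (1, 2, 3 or 4) and replicates 2 and 3 at 0.5% O2. It was also lost with RLE size factors (edgeR adjusted p = 0.0537), library totals (0.146), DESeq2 (0.0575), no filter (0.153) and 1 fit over all 28 libraries (0.438).

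**Figure D4:**
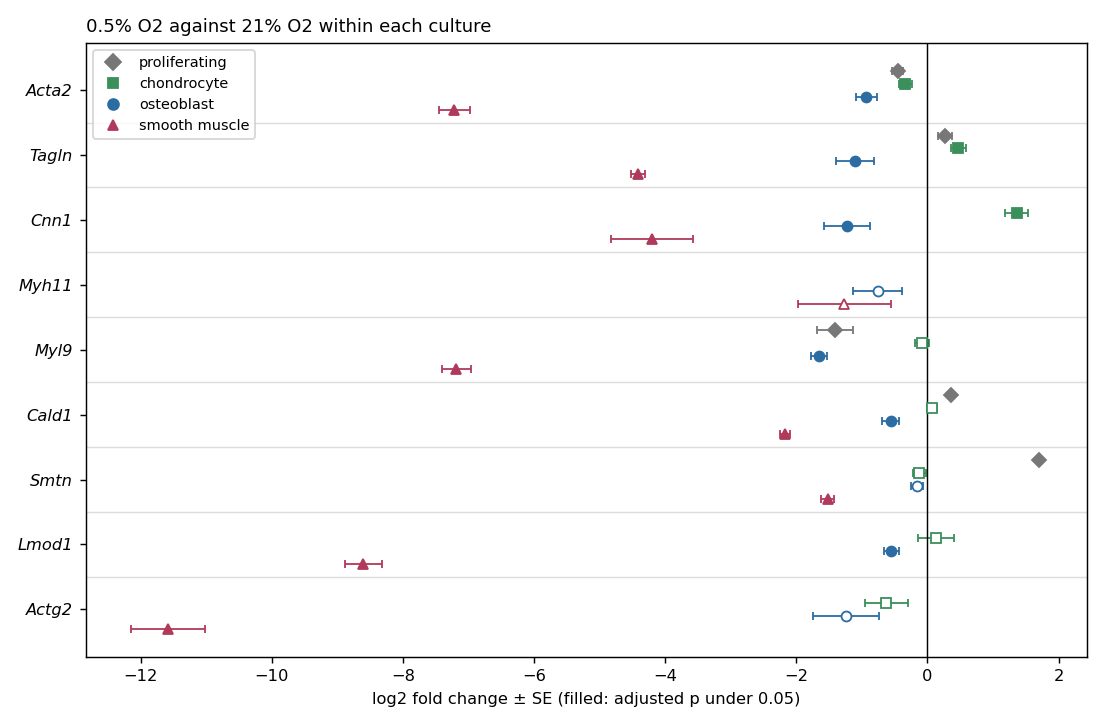
Log2 difference, 0.5% minus 21% O2, of each tested member within proliferating, chondrocyte, osteoblast and smooth muscle cultures, with SE bars; filled points have an edgeR adjusted p under 0.05. The smooth muscle points reach -8.60 for Lmod1 and lie further left for Actg2, whose fitted value against 0 counts is no bound; the osteoblast points lie between -1.65 and -0.16, and the chondrocyte points lie on either side of 0, from -0.63 for Actg2 to 1.36 for Cnn1, where the sign for Cald1 turns under scaling by library totals.

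Whether the change from proliferating cells itself depended on oxygen was tested as an interaction, the change at 0.5% O2 minus that at 21% O2. For smooth muscle cultures 8 of 9 tested members had a lower change at 0.5% O2, where 35.5% of all genes did, with a median of -5.2 against -0.042. Lmod1, Cnn1, Actg2 and the uncalled Myh11 passed the filter through the 21% O2 smooth muscle libraries. The calls of Lmod1, Cnn1 and Actg2 therefore follow in part from it. Over the 5 members with at least 10 counts in every library, all with a lower change, the median was -4.64. The differences were -9.22 for Lmod1 (SE 0.836), -6.73 for Acta2 (SE 0.241, edgeR adjusted p = 7.74e-13), -5.75 for Myl9, -4.64 for Tagln, -3.18 for Smtn and -2.48 for Cald1. Under scaling by library totals they were -10.5, -8.06, -7.08, -5.97, -4.51 and -3.82 in the same order, and without smooth muscle replicate 2 at 0.5% O2 Lmod1 was at -10.66. Cnn1 was at -5.20, and at -11.58 without smooth muscle replicate 3 at 0.5% O2, where it then had no counts; it was at -4.21 without proliferating replicate 2 and -4.54 without smooth muscle replicate 1 at 0.5% O2, -6.05 without proliferating replicate 4 at 21% O2, -6.52 under scaling by library totals and -6.83 with limma-voom. Myh11 was at -2.13 (edgeR adjusted p = 0.172) and was called without smooth muscle replicate 1 at 0.5% O2 (-3.77, 0.0263). It was also called under scaling by library totals (-3.45, edgeR adjusted p = 0.0321) and with limma-voom (-3.34, adjusted p = 0.0409).

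For osteoblast cultures 3 members had a lower change at 0.5% O2, where 25.3% of all genes did, and the median was -1.33 against 0.0023 (-0.872 over the 5 members with at least 10 counts in every library). These were Smtn (-1.82, SE 0.0977, edgeR adjusted p = 1.04e-09), Tagln (-1.33, SE 0.344) and Cald1 (-0.87, SE 0.141). The lower change of Smtn went with its higher level in proliferating cells at 0.5% O2, from which it is counted. Acta2 (-0.44, edgeR adjusted p = 0.0533) and Lmod1 (-1.15, 0.0619) missed the threshold and passed it under some other choices: without osteoblast replicate 4 at 21% O2 they stood at -0.28 (0.0336) and -1.22 (0.045), and under scaling by library totals at -0.56 and -1.28.

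Acta2 also passed without osteoblast replicate 1 (-0.48), 2 (-0.50) or 3 (-0.47) at 21% O2, osteoblast replicate 3 at 0.5% O2 (-0.50) or proliferating replicate 3 at 0.5% O2 (-0.54), and Lmod1 without osteoblast replicate 1 at 0.5% O2 (-1.23), proliferating replicate 2 at 0.5% O2 (-1.37) or proliferating replicate 4 at 21% O2 (-1.55). Cnn1 (-2.22, edgeR adjusted p = 0.0861) passed without proliferating replicate 4 at 21% O2 (-3.08) and Myh11 (-1.60, 0.202) without proliferating replicate 2 at 21% O2 (-3.28). Over all fits that left out a library, Cnn1 ran from -3.08 to -1.21 and Myh11 from -3.28 to -0.96. Myl9 was at -0.21 (edgeR adjusted p = 0.53) and turned to 0.08 without proliferating replicate 1 at 0.5% O2.

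For chondrocyte cultures 1 of 8 tested members had a higher and 2 a lower change at 0.5% O2, where 21.6% and 21.9% of all genes did, and the median was -0.069 against -0.032, but 0.13 over the 5 members with at least 10 counts in every library. Myl9 was at 1.32 (SE 0.269), Smtn at -1.81 (SE 0.122) and Cald1 at -0.27 (SE 0.0853, edgeR adjusted p = 0.0163). The call for Cald1 was lost without chondrocyte replicate 2 at 0.5% O2 (-0.23, 0.0528) or proliferating replicate 3 at 0.5% O2 (-0.22, 0.0609), and in 1 fit over all 28 libraries (-0.22, 0.161). The terms for Myl9 and Smtn went with the difference of -1.42 and 1.70 in the proliferating cells from which they are counted, while within chondrocyte cultures Myl9 (-0.08) and Smtn (-0.12) were not called with oxygen. Acta2 was at 0.13 (edgeR adjusted p = 0.482) and Tagln at 0.22 (0.27).

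Actin makes the isoform balance visible, because Acta2 can be set per exon length against the cytoplasmic actins Actb and Actg1, which build the cortex and stress fibres of all cells. In proliferating cells Acta2 made up 0.849% ± 0.0205 (SD, n = 4) of the summed actin level at 21% O2, and Actb and Actg1 made up 59.0% and 40.1%. Its share was 50.7% ± 2.39 (SD, n = 4; 49.3% to 54.3%) in osteoblast, 45.7% ± 1.38 (SD, n = 4; 44.2% to 47.4%) in smooth muscle and 36.0% ± 2.15 (SD, n = 4) in chondrocyte cultures at 21% O2. The osteoblast and smooth muscle shares did not overlap.

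At 0.5% O2 the share of Acta2 was 29.4% ± 1.48 (SD, n = 3) in chondrocyte and 23.8% ± 1.47 (SD, n = 3) in osteoblast cultures, and 0.74% ± 0.286 (SD, n = 3) in smooth muscle cultures, close to the 0.878% ± 0.0585 (SD, n = 3) of proliferating cells. In osteoblast cultures the cytoplasmic actins moved the opposite way to Acta2 with oxygen: Actb rose by 0.70 and Actg1 by 1.02 on the log2 scale at 0.5% O2. In smooth muscle cultures Actb fell by 1.23 (-2.60 under scaling by library totals), and Actg1 was 0.37 higher but -1.0 under scaling by library totals, so its direction depends on the scaling, and it made up 65.7% of actin there. Acta1, the skeletal muscle actin, rose by 5.40 in smooth muscle cultures at 21% O2, yet only to 10.45 CPM, and was lower in osteoblast cultures by 2.02 on the log2 scale. Actc1, the cardiac actin, had no counts.

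**Figure D5:**
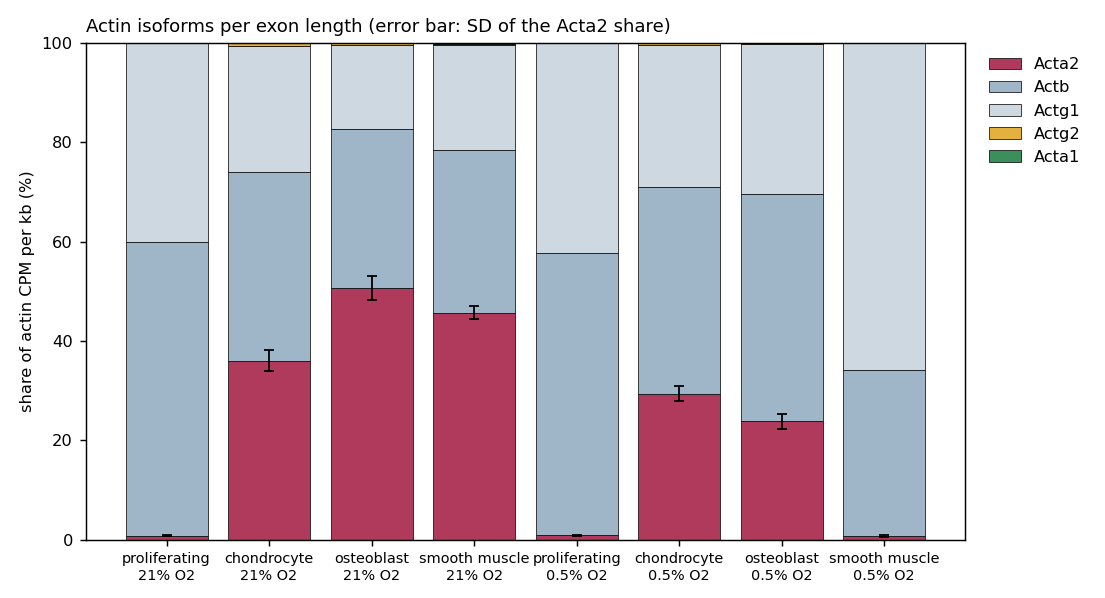
Share of the summed level of actin genes, per kilobase of exon, held by each actin in the 8 groups (stacked bars of group means, in percent; the error bar is the SD of the Acta2 share over libraries). Acta2 holds 50.7% in osteoblast and 45.7% in smooth muscle cultures at 21% O2, 23.8% in osteoblast cultures at 0.5% O2 and under 1% in both proliferating groups and in smooth muscle cultures at 0.5% O2.

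The contractile partners are 46 further genes of the same machinery, such as the myosin light chain kinase Mylk, tropomyosins and focal adhesion proteins, of which 45 had counts. In osteoblast cultures at 21% O2, 33 of 44 tested partners were higher and 5 lower than in proliferating cells, where 40.9% and 37.8% of all genes were, with a median log2 fold change of 0.951 against 0.066 over all genes. In smooth muscle cultures 33 of 43 were higher and 8 lower (40.8% and 38.9% of all genes; median 1.11), and in chondrocyte cultures 30 of 42 were higher and 6 lower (37.7% and 37.2% of all genes; median 0.4). Mylk, the kinase that phosphorylates the Myl9 product, rose by 6.33 in osteoblast and 6.27 in smooth muscle cultures, and by 2.85 in chondrocyte cultures. The alpha tropomyosin gene Tpm1 rose by 2.43 and 2.21, and Tpm2 by 1.55 and 1.19, in osteoblast and smooth muscle cultures. The integrin subunit Itga8, a smooth muscle adhesion receptor, rose by 6.15 and 5.42.

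Between osteoblast and smooth muscle cultures at 21% O2, 15 of 44 partners were higher and 12 lower (median 0.0666), near the 25.3% and 24.4% of all genes. The counts were 20 and 17 without osteoblast replicate 4 (29.9% and 29.8% of all genes) and 11 and 18 under scaling by library totals (15.9% and 40%). Mylk did not differ beyond the spread: osteoblast libraries held 146.6 to 265.2 CPM and smooth muscle libraries a mean of 219.9 ± 6.81 CPM (SD, n = 4), a log2 difference of 0.07 (edgeR adjusted p = 0.755) that was 0.24 and called (2.2e-04) without osteoblast replicate 4 and -0.15 under scaling by library totals. Pgm5, an adhesion plaque protein of smooth muscle, separated them: its osteoblast mean was 29.05 CPM (22.19 to 32.76) at 21% O2 and 0.213 CPM in smooth muscle cultures, a log2 difference of 7.03 (SE 0.364, edgeR adjusted p = 4.57e-07). At 0.5% O2 the osteoblast mean of Pgm5 was 0.1918 CPM, lower by 7.21 on the log2 scale (edgeR adjusted p = 5.4e-07, and -7.99 without osteoblast replicate 3 at 0.5% O2). In both comparisons Pgm5 passed the filter through the 21% O2 osteoblast libraries, so its calls follow in part from the filter.

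With low oxygen, 12 of 43 tested partners were higher and 29 lower in smooth muscle cultures (median -0.793), where 35.4% and 40.2% of all genes were, or 3 and 37 under scaling by library totals, where 13.4% and 72.6% were. Mylk fell by 6.45 on the log2 scale, Itga8 fell by 5.40 and Tpm1 fell by 2.44 (-7.82, -6.77 and -3.81 under scaling by library totals), while the LIM protein gene Csrp2 rose by 5.16 (3.78 under scaling by library totals), from 102.8 to 3505 CPM. Tpm2 was 0.69 higher, but -0.68 under scaling by library totals. In osteoblast cultures 17 of 44 partners were higher and 11 lower (median 0.145), where 27.0% and 27.3% of all genes were. The counts were 21 and 15 without osteoblast replicate 4 (32.9% and 32.7% of all genes) and 13 and 18 under scaling by library totals (20.9% and 35.8%), with Mylk lower by 0.88, Tpm1 by 1.23, Tpm2 by 0.79 and Itga8 by 2.36. In chondrocyte cultures Mylk fell by 2.39 on the log2 scale at 0.5% O2 (edgeR adjusted p = 3.73e-06), in a comparison where Acta2 fell by 0.34 and Myl9 was not called.

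Among the transcription factors of the SRF programme, 36 genes of which 33 had counts, the coactivators did not follow a single pattern. Myocd, which encodes myocardin, the smooth muscle and heart coactivator of SRF, stood at 3.331 to 7.02 CPM in osteoblast libraries at 21% O2 and at 0.08747 to 0.232 CPM in smooth muscle libraries, a log2 difference of 4.78 (SE 0.33, edgeR adjusted p = 1.52e-06; 4.93 without osteoblast replicate 4). It stood at 2.006 to 2.284 CPM in osteoblast libraries at 0.5% O2, lower than at 21% O2 by 1.26 (edgeR adjusted p = 0.00266). No count of Myocd was found in smooth muscle or proliferating libraries at 0.5% O2. Each of the 7 osteoblast libraries was above 2 CPM, and no library of another group was above 0.3543 CPM. Myocd passed the filter through the osteoblast libraries, so its call against smooth muscle cultures follows in part from the filter. The part of Myocd in the levels of the members was not tested.

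Mrtfa, which encodes an actin-sensing coactivator of SRF, rose by 1.59 in osteoblast and 0.66 in smooth muscle cultures at 21% O2, and was higher in the former by 0.91 (edgeR adjusted p = 1.63e-05). Mrtfb rose by 0.69 and 1.07 and was lower in osteoblast cultures by 0.39. At 0.5% O2 both fell in smooth muscle cultures, Mrtfa by 1.06 and Mrtfb by 1.49 (-2.43 and -2.86 under scaling by library totals). Srf itself fell by 0.38 on the log2 scale in osteoblast cultures (edgeR adjusted p = 0.00355), differed by -0.15 in smooth muscle cultures (0.0892; -0.23 with a call, 0.00192, without proliferating replicate 4), and with low oxygen rose by 0.75 in osteoblast and fell by 0.34 in smooth muscle cultures (-1.71 under scaling by library totals).

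Klf4, a repressor of smooth muscle genes, fell by 0.62 in osteoblast and 1.16 in smooth muscle cultures at 21% O2. At 0.5% O2 it rose by 1.98 on the log2 scale in osteoblast cultures (edgeR adjusted p = 3.72e-06), from 47.91 to 189.6 CPM. In smooth muscle cultures Klf4 differed by 0.35 (edgeR adjusted p = 0.0515), was called higher without smooth muscle replicate 2 at 0.5% O2 (0.52, edgeR adjusted p = 6.69e-04), with RLE size factors (0.39, 0.032), DESeq2 (0.38, 0.037) and limma-voom (0.33, 0.0425), and stood at -1.02 under scaling by library totals. Over the whole list, 15 of 29 tested genes were higher and 7 lower in osteoblast than in proliferating cells at 21% O2 (median 0.412; 40.9% and 37.8% of all genes), and 12 of 25 and 7 in smooth muscle cultures (median 0.209; 40.8% and 38.9%). With low oxygen in osteoblast cultures 15 of 30 were higher and 3 lower (median 0.406; 27.0% and 27.3% of all genes), or 19 and 7 of 29 without osteoblast replicate 4 (32.9% and 32.7%). With low oxygen in smooth muscle cultures 4 of 27 were higher and 15 lower (median -0.667; 35.4% and 40.2% of all genes), or 1 and 23 under scaling by library totals (13.4% and 72.6%).

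Markers of related cell types were read beside the members. The 24 genes of the myofibroblast and TGF-beta response, all with counts in every group, summed to 4720 to 5260 CPM in proliferating, 87600 to 98100 CPM in chondrocyte, 38200 to 41700 CPM in osteoblast and 17900 to 20800 CPM in smooth muscle libraries at 21% O2. At 0.5% O2 they summed to 9800 to 10200, 100000 to 108000, 33600 to 35700 and 7170 to 8620 CPM in the same order. The sums were higher in the groups with high Acta2 than in proliferating cells, but in another order. Chondrocyte cultures were at the top and smooth muscle cultures were lowest of the differentiated groups. Smooth muscle sums at 0.5% O2 lay below those of proliferating cells at 0.5% O2 and above those at 21% O2. Those smooth muscle sums are TMM-scaled values, which depend most on the scaling. The part of this list in the member levels was not tested. The 13 pericyte and mural genes with counts summed to 620 to 836 CPM in osteoblast, 495 to 580 CPM in smooth muscle and 1610 to 1700 CPM in chondrocyte libraries at 21% O2 (698 to 908 and 638 to 741 in the first 2, overlapping, under scaling by library totals), and Abcc9 and Heyl had no counts in either of the first 2 groups. Pdgfrb, the receptor shared by pericytes and other mesenchymal cells, had a mean of 501.2 CPM in osteoblast and 344.6 CPM in smooth muscle cultures at 21% O2, while Rgs5, a pericyte marker, was at 0.5649 and 0.1818 CPM. The 28 striated muscle genes summed to 20.8 to 29.5 CPM in osteoblast and 36.4 to 41.4 CPM in smooth muscle libraries, with the myosin genes Myh2, Myh3 and Myl1 at 0 in both. The 20 chondrocyte genes summed to 1840 to 3080 CPM in osteoblast and 1290 to 1410 CPM in smooth muscle libraries at 21% O2, and to 32.8 to 44.2 CPM in smooth muscle libraries at 0.5% O2.

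The members varied together across the groups to different degrees. Over the 8 group means of log2 CPM, the median Pearson correlation of a member with the other tested members was 0.953 for Acta2, 0.949 for Myl9, 0.942 for Tagln and 0.93 for Cnn1, and lowest for Smtn (0.776) and Myh11 (0.633). These are descriptions over 8 means that share libraries and scaling. For Acta2, Tagln, Cnn1, Myl9, Lmod1 and Actg2, proliferating cells and smooth muscle cultures at 0.5% O2 lay far below the other groups. The part of that step in the correlations was not tested. By the same measure, among 10177 genes reaching 10 CPM in a group, those most like the average profile of 9 members were Rtl8b, Dirc2 and Fat4 (each 0.994), Rasl11b (0.992) and Lrpap1 (0.991). Fat4, an atypical cadherin, for instance stood at 4.283 CPM in proliferating, 98.24 in chondrocyte, 387.7 in osteoblast and 219.8 in smooth muscle cultures at 21% O2, and at 8.078 CPM in smooth muscle cultures at 0.5% O2.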

How the data were processed

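Per the labels' protocols, polyadenylated RNA was sequenced from stranded libraries. The submitters' processing notes name HISAT2 2.0.5, StringTie 1.3.3b and featureCounts 1.5.0-p3; the genome build, the use of strand in counting and the handling of reads that fit several genes are not given in the sources used here. The authors deposited a table of raw read counts, unnormalised per the values, for 54429 genes in 28 libraries, of which 28192 had a count. The authors also deposited 10 tables of their own comparisons, with log2 fold changes and p-values per the file headers, and 70 columns of per-library values in those tables were not used. Of the gene identifiers, 54314 (99.8%) matched a symbol. Coordinates and exon lengths are from GENCODE M21 (GRCm38), and promoters from RefSeq.

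Groups came from the labels. Counts were scaled with TMM, and CPM are per scaled library of 1000000 counts. Each of 14 pairwise comparisons was fitted to its own 2 groups, and each of 3 interaction terms to its 4 groups, with the quasi-likelihood F test of edgeR 4.0.16 (limma 3.58.1, statmod 1.5.0, R 4.3.3), two-sided. Genes were kept with filterByExpr (at least 10 counts, scaled to the median library, in the number of libraries set by the smaller group, and 15 counts in all). Calls had a Benjamini-Hochberg adjusted p under 0.05 over all genes tested. The SE is the size of the log2 fold change over the root of F. The procedure was run on simulated counts with a fixed dispersion, changes only in genes of higher counts and no library set apart. That run therefore does not cover the low-count members or osteoblast replicate 4. The members, the lists and the genes named were chosen with earlier results of these data known. Named beside all 10 members were regulators, partner genes and markers from the lists, at most 4 called genes of the largest change per list and comparison, and the 5 genes most like the members. Alternatives were RLE size factors, library totals alone, mitochondrial genes left out, DESeq2 1.42.0, limma-voom, no filter, at least 10 counts in every library, 1 fit over all 28 libraries, a replicate block, and each library left out (140 fits). Intervals on counts cover counting error only. Same-numbered libraries were not treated as pairs. The 79 member values that the authors' deposited table also gives all had the same sign as here, and among the 69 called here the median difference in log2 was 0.016 and the largest 0.904.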

Additional observations from a re-analysis of the deposited data

Results flagged for a closer look

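Among groups of 4 libraries, 31 gene and group combinations were checked for a single library far from the other 3 (a gap above 0.829 of the range, Dixon's 95% value), which chance gives in about 1 of 20. Osteoblast replicate 4 at 21% O2 was such a library for 7 members: it was the highest for Acta2 (4162 CPM), Tagln (505.2 CPM), Cnn1 (12.36 CPM), Myl9 (499.5 CPM), Cald1 (2211 CPM) and Actg2 (35.16 CPM), and the lowest for Smtn (417.2 CPM). These 7 values come from 1 library and are not independent of each other. The other 3 were low values, so that all 10 are values of replicate 4 libraries at 21% O2: Cald1 in smooth muscle cultures (1551 CPM), Smtn in proliferating cells (46.38 CPM) and Actg2 in chondrocyte cultures (9.133 CPM).

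In the osteoblast library Mylk was low too, at 146.6 CPM against 256.7 to 265.2 CPM in replicates 1 to 3, as was Itga8, at 553.6 against 1143 to 1178 CPM. Hey1, a Notch target, was at 87.46 against 7.898 to 9.225 CPM, and Sox9, the cartilage regulator, at 193.6 against 51.13 to 54.72 CPM.

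The change from proliferating cells differed between oxygen levels (interaction term, edgeR adjusted p under 0.05, log2 at 0.5% O2 minus 21% O2) for 8 members in smooth muscle cultures: Acta2 (-6.73), Tagln (-4.64), Cnn1 (-5.20), Myl9 (-5.75), Cald1 (-2.48), Smtn (-3.18), Lmod1 (-9.22) and Actg2 (-12.04, a fitted value against 0 counts that depends on the prior count). In osteoblast cultures it differed for Tagln (-1.33), Cald1 (-0.87) and Smtn (-1.82). In chondrocyte cultures it differed for Myl9 (1.32), Cald1 (-0.27) and Smtn (-1.81). Of all genes tested, 35.5% had a lower change in smooth muscle and 25.3% in osteoblast cultures. In chondrocyte cultures 21.6% of all genes had a higher and 21.9% a lower change. Lmod1, Cnn1 and Actg2 passed the filter through the 21% O2 smooth muscle libraries. The proliferating libraries are shared by the 3 terms, and Smtn was already 3.25-fold higher at 0.5% O2 in proliferating cells.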

How the results depend on the processing

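Under scaling by library totals the share of called genes that were higher moved from 50.3% to 34.7% (chondrocyte) in the comparison with proliferating cells at 21% O2, and at 0.5% O2 from 50.2% to 31.8% (chondrocyte), 50.8% to 38.2% (osteoblast) and 48.3% to 15.0% (smooth muscle). For 0.5% against 21% O2 it moved from 46.9% to 31.8% (chondrocyte), 49.6% to 36.9% (osteoblast) and 46.8% to 15.6% (smooth muscle). For osteoblast against smooth muscle it moved from 50.9% to 28.4% at 21% and from 52.6% to 78.5% at 0.5% O2, for osteoblast against chondrocyte at 21% O2 from 52.0% to 65.7%, and for the smooth muscle interaction from 49.6% to 16.6%. Under it, smooth muscle against proliferating cells at 0.5% O2 gave 0 members higher (1 without a filter) and 4 lower, where 12.4% and 70.6% of all genes were, osteoblast against smooth muscle at 21% O2 1 lower (40% of all genes), and the osteoblast interaction 5 lower (29.3% of all genes; 6 members with DESeq2). Signs turned under it for Smtn in chondrocyte (-0.071) and Tagln in smooth muscle cultures (-0.80) against proliferating cells at 0.5% O2, for Cald1 with low oxygen in chondrocyte cultures (-0.00247), for Tagln (-0.15), Cald1 (-0.14), Actg2 (-0.13), Tpm1 (-0.013) and Mylk (-0.15) between osteoblast and smooth muscle cultures, and for Tpm2 (-0.68), Klf4 (-1.02) and Actg1 (-1.0) with low oxygen in smooth muscle cultures.

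A minimum of 10 counts in every library left 5 members called in each of the 5 comparisons that had 8 or 9 higher than proliferating cells, 5 lower with low oxygen in smooth muscle cultures, 5 higher in osteoblast than smooth muscle cultures at 0.5% O2 and 5 lower in the smooth muscle interaction, since it tests fewer genes. In 1 fit over all 28 libraries, low oxygen in chondrocyte cultures gave 1 member higher and 0 lower, and the chondrocyte interaction 1 lower. The shares of all genes called are not given for these settings, so these counts are not set against a background. With limma-voom the signs of the uncalled Tagln (-0.0325) and Actg2 (-0.146) differences between osteoblast and smooth muscle cultures turned. The cause of the other changes was not tested.

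Leaving out 1 library gave 2091 to 3359 genes called for low oxygen in chondrocyte cultures (3157 with all), with 1 to 2 members higher and 0 to 2 lower. It gave 0 to 2 higher for smooth muscle against proliferating cells at 0.5% O2, 0 to 4 lower for osteoblast against smooth muscle and 0 to 1 lower for osteoblast against chondrocyte at 21% O2, and 1 to 2 and 3 to 5 lower for the chondrocyte and osteoblast interactions. With all libraries, 10.4% of all genes were higher and 11.8% lower for low oxygen in chondrocyte cultures. For smooth muscle against proliferating cells at 0.5% O2, 33.8% were higher. For osteoblast cultures at 21% O2, 24.4% were lower than in smooth muscle and 28.6% than in chondrocyte cultures. The chondrocyte and osteoblast interactions had 21.9% and 25.3% lower. Without osteoblast replicate 4, the osteoblast shares were 29.8%, 32.9% and 27.9% in that order. Signs turned for Myl9 (-0.195 to 0.00991) and Lmod1 (-0.175 to 0.336) with low oxygen in chondrocyte cultures. Between osteoblast and smooth muscle cultures at 21% O2 they turned for Acta2 (-0.171 to 0.03996), Tagln (-0.301 to 0.174), Cnn1 (-0.198 to 0.387), Cald1 (-0.0477 to 0.123) and Actg2 (-0.63 to 0.265). They also turned for Tagln against chondrocyte cultures (-0.0178 to 0.454), for Cnn1 (-0.519 to 1.33) and Actg2 (-1.36 to 0.379) in the chondrocyte interaction and for Myl9 in the osteoblast interaction (-0.402 to 0.0789).

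Replicate numbers did not pair the libraries: deviations of 47 same-numbered pairs correlated between -0.26 and 0.18, and in 0 of 14 comparisons did all pairs exceed 0.1. With a replicate block, Tagln (-0.0342) and Actg2 (-0.164) turned sign between osteoblast and smooth muscle cultures, Acta2 lost its call with low oxygen in chondrocyte cultures (adjusted p 0.0994), Actg2 there, Smtn and Actg2 in osteoblast cultures and Cnn1 in the osteoblast interaction gained one, and no count of members moved by over 1.5 times. Values of genes other than members were added after seeing the data. Depth limits Des, Myh11 and Cnn1 most, and the lowest members outside differentiated groups.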
